A study of Salmo salar with 34 samples.

Results

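In the midgut of Atlantic salmon fed organic trace minerals, 150 array probes were higher at the high than at the low mineral level in females and lower at the high level in males. They were chosen by these measured values themselves. For each probe the mean high minus low difference was taken in organic females and in organic males, probes were ranked by the smaller of the female rise and the male fall, and the first 150 of 10295 ranked probes were kept. A value here is the log2 of the spot's background-subtracted signal minus the 75th percentile of its array, so a level of -3 lies 3 log2 units below that percentile, and a difference of 1 is a doubling. The ranked probes were those read well above the background on at least 25 of 34 arrays, out of 14841 on the array. Since the organic fish chose the probes, their values are given as a description with no test. Tested were only differences between fish fed inorganic minerals, which played no part in the ranking. The spread used in these tests was estimated from all 34 arrays, organic fish included, so the p-values are not free of the choice.

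Copper, iron, manganese, selenium and zinc are cofactors of enzymes in respiration, redox defence and lipid and protein metabolism, and the gut wall is where their uptake from feed is set. Inorganic minerals are given as simple salts that dissociate in the gut, whereas organic minerals are bound to amino acids, peptides or yeast protein. Midgut tissue is a mixture of absorptive enterocytes, mucous cells, muscle and resident immune cells. In such bulk RNA, fewer cells of a type and less RNA per cell cannot be told apart. The files do not pair the probe identifiers with genes, and none of the 150 identifiers matched the salmon gene table used as reference, so no function can be given to a probe and no cell type marker could be checked against the tissue label.

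Post smolts were kept in tanks of sea water and ate diets with inorganic (IM) or organic (OM) mineral premixes, and midgut was taken after 12 weeks. All groups had been through the same repeated handling stress and had spent the last weeks at lowered oxygen, the premixes held all 5 minerals, and which numbered diets were meant by high and low is not given in the labels. With 1 fish per array, low OM was given to 6 of the females and 5 of the males, high OM to 3 and 6, low IM to 5 and 3, and high IM to 4 and 2. The tank of each fish is not in the labels, so the error is the spread between fish, tank mates included. The 75th percentile of the arrays ran from 87.9 to 863 intensity units, each array read 8786 to 13682 probes as well above background, 0 spots were saturated, and Pearson r between any 2 arrays was 0.731 to 0.994. The arrays sat on 7 slides, 5 of which held fish of a single sex, and were scanned on 2 days, the first of which covered only females. Each array is named below by its group and its fish number in the labels.

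The female rise of the 150 probes ran from 1.00 to 5.10 with a median of 2.07, against a median of -0.02 over all 10295 probes. The male response ran from -4.56 to -0.996 with a median of -1.20, against -0.03 over all probes. The male fall was the smaller of both sides in 122 probes and the female rise in 28, so it was mostly the males who set the order. A rise in females together with a fall in males of any size was seen in 2579 probes, or 25.1% of those ranked. The last probe taken had a female response of 1.00 and a male response of -1.01. The first left out had 1.61 and -0.99, so no gap in the values separates the 150 from those that follow.

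Averaged over the 150 probes, the 3 high organic females stood at -1.75, -1.21 and -0.47, with a mean of -1.14 ± 0.64 (SD, n = 3). The 6 low organic females lay between -4.13 and -2.88 with a median of -3.48 (mean -3.47 ± 0.45, SD, n = 6). All 3 high females were above all 6 low females by this average. In single probes all high females were above all low females in 89 of the 150, where 8.29% of all probes showed this, and as the rule used that contrast nothing is read from it.

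The 5 low organic males stood at -3.20, -2.91, -2.48, -2.41 and -0.10, with a mean of -2.22 ± 1.23 (SD, n = 5). The 6 high organic males lay between -4.02 and -3.04 with a median of -3.50 (mean -3.52 ± 0.42, SD, n = 6). The groups of males overlapped, since low male 3 at -3.20 fell within the range of the high males, and low male 6 stood apart at the top. All high males were below all low males in 8 of the 150 probes, beside 4.12% of all probes.

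**Figure D1:**
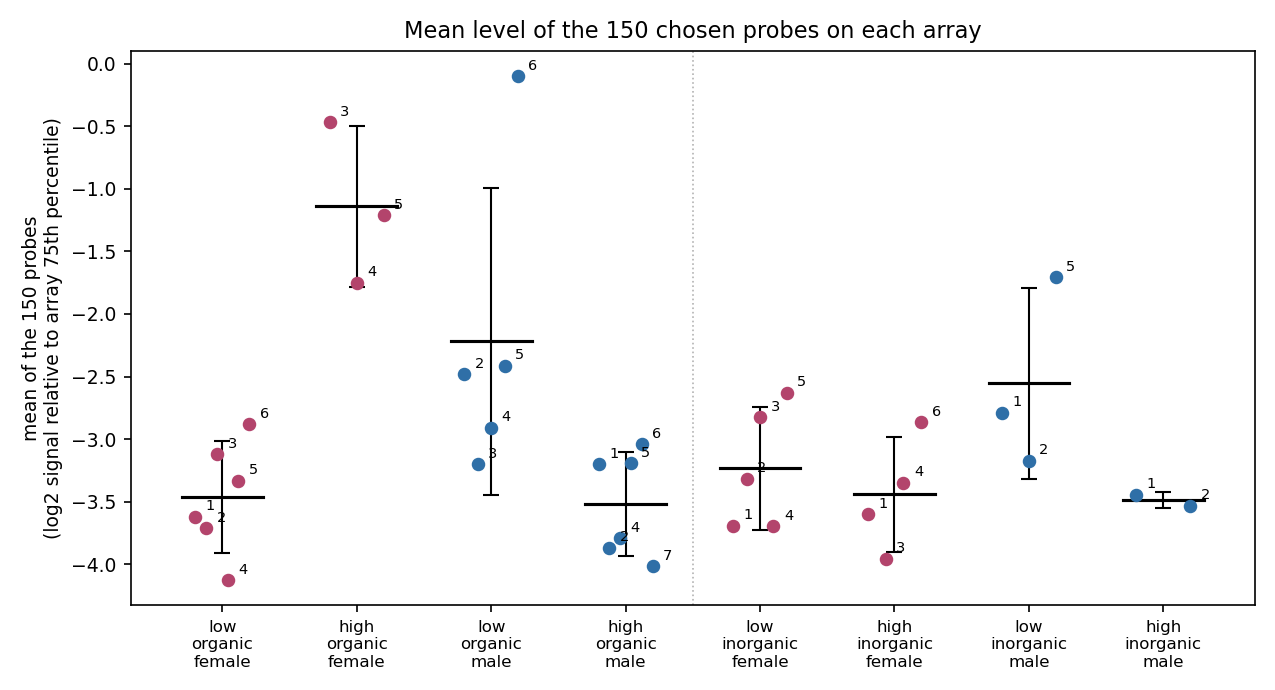
Mean of the 150 chosen probes on each of 34 arrays (vertical axis, log2 signal over the array's 75th percentile) by diet, level and sex. Points are fish with their number in the labels, red for females and blue for males, and bars show the group mean and SD. The 3 high organic females (-1.75 to -0.47), low organic male 6 (-0.10) and low inorganic male 5 (-1.70) lie above all other arrays.

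Low organic male 6 carried much of the male fall. It was the highest of the 5 low males in 128 of the 150 probes and exceeded the mean of the other 4 in 145, by a median of 2.48, against 0.01 over all probes. Without it the median male response of the 150 was -0.71 in place of -1.20. The response then stayed below 0 in 149 of them but below -1 in 29, against 148 with this fish, and 81 of the 150 would have been chosen again. The log2 SD over the ranked probes was 2.37 on this array, the 2nd lowest of 34. The lowest, 2.32, was that of high organic female 3, while high organic female 5 was 5th, low inorganic male 5 was 7th and high organic female 4 was 28th, so 4 of the 5 arrays with the highest averages were among the 7 with the least spread of signals. The array of low organic male 6 lay on slide 6 together with low inorganic male 5, the array with the highest average among the 14 inorganic fish. The part of the slide and of the narrow spread in these high values was not tested.

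The 150 probes were dim. Their mean level over all arrays ran from -4.59 to 3.04 with a median of -3.28, against -1.09 for all ranked probes. When the ranked probes were put into 4 equal bins by mean level, 102 of the 150 lay in the dimmest bin, 37 in the next, 9 in the third and 2 in the brightest. All 34 arrays read 49 of them (32.7%) well above the background, beside 73.8% of all ranked probes. None was unread throughout a group, and the share of spots read was 81% in low organic females, 98% in high organic females, 98.9% in low organic males and 94.3% in high organic males. The 150 varied widely, with a median range over the 34 arrays of 5.35 log2 units against 2.42 for all ranked probes.

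The direction of the median in males changed with the processing of the signal. With the normexp correction of the median spot brightness and an offset of 50, which together change the measure, the correction and the compression of dim spots, the median male response of the 150 was 0.03 and 72 of them fell, while the median over all probes moved to 0.23. All 150 still rose in females, by a median of 0.77. Taken apart after the data had been seen, normexp with an offset of 0 gave a male median of -0.60 with 149 below 0, and the processed signal with 50 added gave -0.19 with 109 below 0, beside 1.68 and 0.86 in females. Each step thus brought the male response nearer to 0, and only both together turned the median. The median over all probes in males rose as well, to 0.11 with normexp at offset 0 and to 0.16 with 50 added. The probes that no longer fell all lay in the 2 dimmer bins, for which no median over all probes under normexp is given here. Whether dim probes shifted in general was not tested. Of the 49 read on every array, 41 fell in males under normexp (median -0.25), and so did all 11 in the 2 brighter bins (median -1.06), whereas 61 of the 139 in the 2 dimmer bins did (median 0.07). The 75th percentiles were also unequal between the groups of males, 225 to 863 intensity units at low OM and 123 to 308 at high OM, and their part in the result was not tested. By the authors' processed values the medians were 1.65 in females and -0.94 in males, and 148 of the 150 kept both directions.

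Within slides and scan days the organic responses had the following sizes. On slide 2 the 2 high females were above the 2 low females by a median of 2.60 over the 150 probes, with 150 probes higher. On slide 7 the only high female was above the only low female by 1.80, with 133 higher. Both scan days gave a female rise, with medians of 2.54 and 2.00. On slide 5, which held neither of the arrays that stood apart, the 2 high males were below the 2 low males by a median of only 0.32, with 112 probes lower and 38 higher. On slide 6 the median male response was -1.63, with 144 probes lower. Over all probes the medians on slides 2, 7, 5 and 6 were 0.07, -0.03, 0.09 and -0.16. The high females of slides 2 and 7 are the fish whose values chose the probes, so nothing is read from the rise there. The male response was small on slide 5, which did not hold low male 6.

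At the high organic level females were above males by a median of 2.22 over the 150 probes, with 145 higher in females. At the low level the order was turned, by a median of -1.09, with 149 lower in females. Over all probes these medians were -0.01 and -0.02. The rule sets a gain of females over males from the low to the high level, so nothing is read from the turn. Beside the inorganic fish of the same level and sex, the high organic females were higher by a median of 2.21 (145 of 150 probes) and the low organic males by 0.31 (122 of 150). Over all probes these medians were -0.06 and 0.02. The rule favours high values in these 2 organic groups, so this and the order of the group means are a description only. The high organic males, with a median difference of -0.03, and the low organic females, with -0.15, lay close to their inorganic counterparts. The highest of the 8 group means was that of high organic females in 120 of the 150 probes, of low organic males in 20, of low inorganic males in 8 and of low inorganic females in 2. By the averages, the high organic females and single low males stood out, and the group means of low organic females, high organic males and the inorganic females and high males lay between -3.52 and -3.23.

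**Figure D2:**
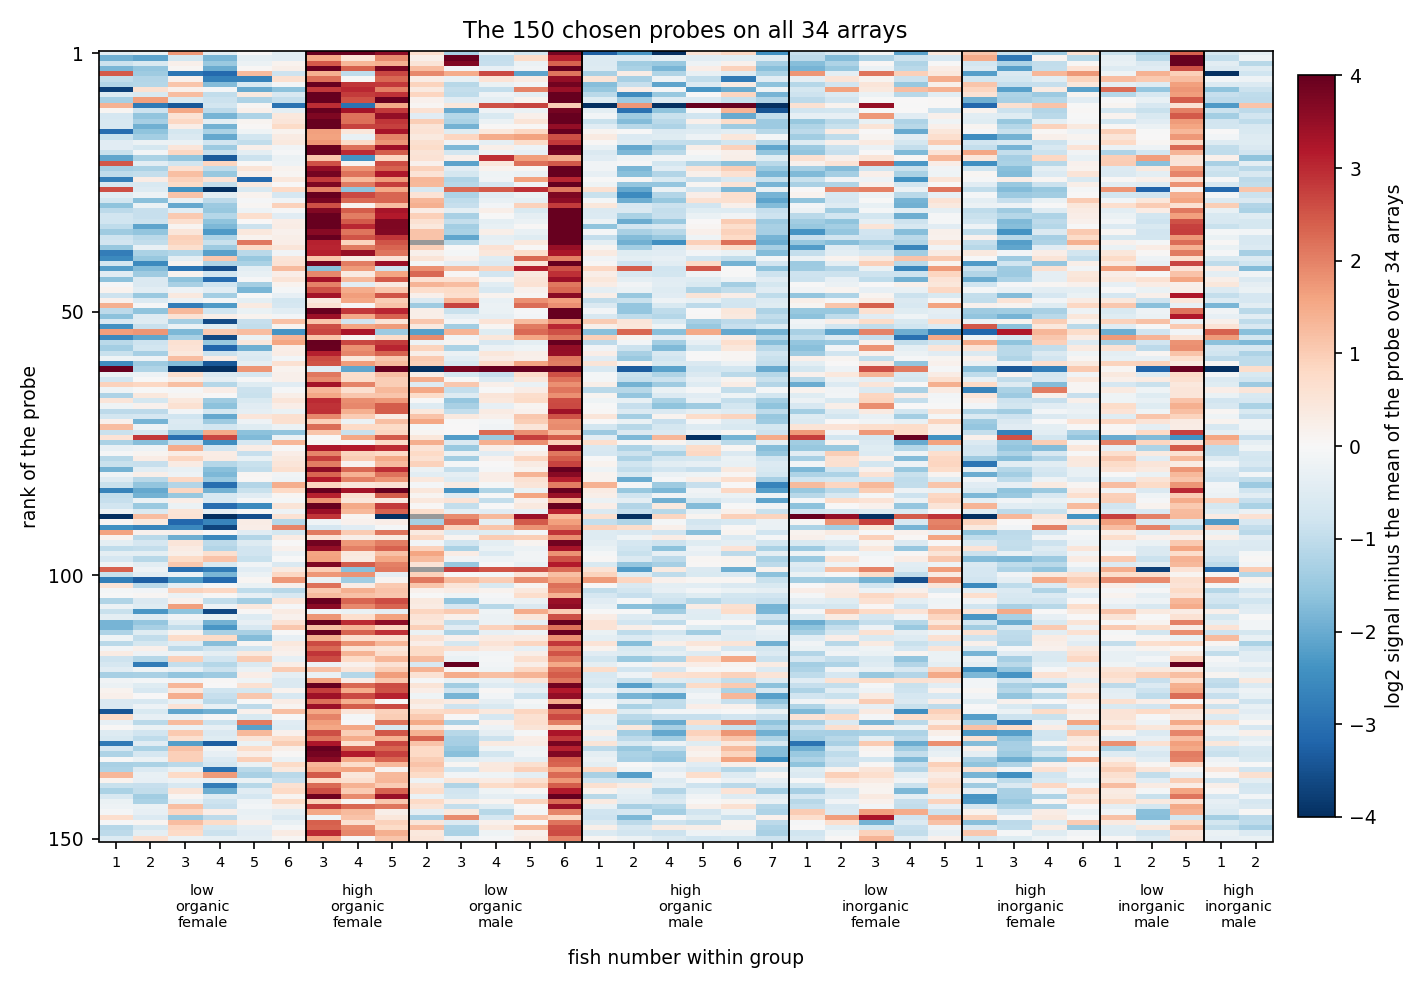
The 150 chosen probes (vertical axis, by rank) on all 34 arrays (horizontal axis, by group and fish number), coloured by log2 signal minus the mean of the probe over the 34 arrays, with colours ending at -4 and 4 and missing spots in grey. Most probes are red in the 3 high organic females and low organic male 6 and, more weakly, in low inorganic male 5, with a few probes that follow other fish.

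The probe ranked first was Ssa#S50681728. Its level in the 3 high organic females was 2.82, 0.76 and 0.38, and in the 6 low organic females it ran from -3.63 to -1.47 with a median of -3.53. The groups of females did not overlap, and the rise of 4.48 was among the larger ones. In the low organic males it stood at -4.49, -3.94, -3.50, -2.54 and 0.63, and in the high organic males it ran from -7.58 to -2.38 with a median of -5.58. The groups of males overlapped, with low male 6 far above the others, and 3 of the 6 high males did not read this probe well above the background. In the inorganic females it stood between -4.67 and -2.10 at the high and between -5.34 and -2.77 at the low level. In the inorganic males it was -3.91 and -3.56 at the high level and -4.49, -4.08 and -0.84 at the low level. The response was 0.50 ± 0.98 (SE) in inorganic females (limma, adjusted p = 0.881) and -0.60 ± 1.33 in inorganic males (limma, adjusted p = 0.978), so neither exceeded the spread between fish.

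The next, Ssa#S18845530, followed other fish. In the low organic males it stood at 2.09 in fish 3, -0.37 in fish 6, -2.75 in fish 5, -3.26 in fish 2 and -4.44 in fish 4, while the 6 high organic males lay within -4.09 and -3.89. In females the 3 high values of -2.96, -1.96 and -1.61 were above the 6 low ones, which ran from -5.61 to -3.88 with a median of -4.77. The highest level of all was 4.88 in low inorganic male 5, where the other 2 low inorganic males read -3.86 and -4.57 and both high ones -4.46 and -3.70. The inorganic male response of -2.90 ± 1.68 (SE) thus rested on a single fish (limma, adjusted p = 0.927). In inorganic females the response was 0.52 ± 1.23 (limma, adjusted p = 0.904), with 1 of the 4 high fish at -1.99 and the other 8 inorganic females at or below -3.38.

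The members ranked 3 and 117 had the same 2 high fish as the one ranked 2, an observation made after their values had been seen. In low inorganic male 5 they stood at 4.82 and 3.55, and in low organic male 3 at 2.06 and 1.16. Leaving these fish, low organic male 6 and the high organic females out, the highest of the other 28 arrays was -1.13 for the member ranked 3, -3.21 for that ranked 117 and -1.99 for that ranked 2. Of the 150 probes, 11 had an inorganic array more than 2 log2 units above the next, and in 10 of them this was low inorganic male 5.

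The brightest member, Ssa#S18869339, was ranked 99. Its level was 5.28, 5.56, 5.62 and 5.78 in 4 low organic males, with the fifth spot missing as an outlier, and from 0.81 to 3.59 with a median of 2.83 in the 6 high organic males. Among the spots left the groups of males did not overlap, and the response of -3.14 did not rest on low male 6, which was the lowest of the 4. The missing spot was that of low male 2. For the member ranked 61, placed in the same cluster further below, low male 2 stood at -6.57, below all 6 high males. The lack of overlap may thus depend on the missing spot. In females the levels were 1.36, 4.01 and 5.16 at high OM and ran from 0.02 to 5.39 with a median of 2.71 at low OM, so the groups overlapped throughout and the rise of 1.096 was smaller than the SD of either group (1.95 and 2.02). In inorganic females the response was -1.72 ± 1.03 (SE), from 1.46 to 2.61 at the high and 2.36 to 5.01 at the low level (limma, adjusted p = 0.470). In inorganic males it was -0.45 ± 1.40 (limma, adjusted p = 0.980), with -0.02 and 4.07 at the high and -0.68, 3.60 and 4.50 at the low level.

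The last probe taken, Ssa#AM402681, had a narrower range. It stood at -2.52, -1.42 and -0.995 in high organic females and from -3.05 to -1.87 with a median of -2.79 in low organic females, and these groups overlapped. In the low organic males it was -2.74, -2.58, -2.24, -2.03 and -0.54, and in the high organic males it ran from -3.34 to -2.46 with a median of -3.17. Low male 6 was again the highest, by 1.49 over the next. The response was -0.45 ± 0.39 (SE) in inorganic females (limma, adjusted p = 0.650) and -0.33 ± 0.53 in inorganic males (limma, adjusted p = 0.972).

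**Figure D3:**
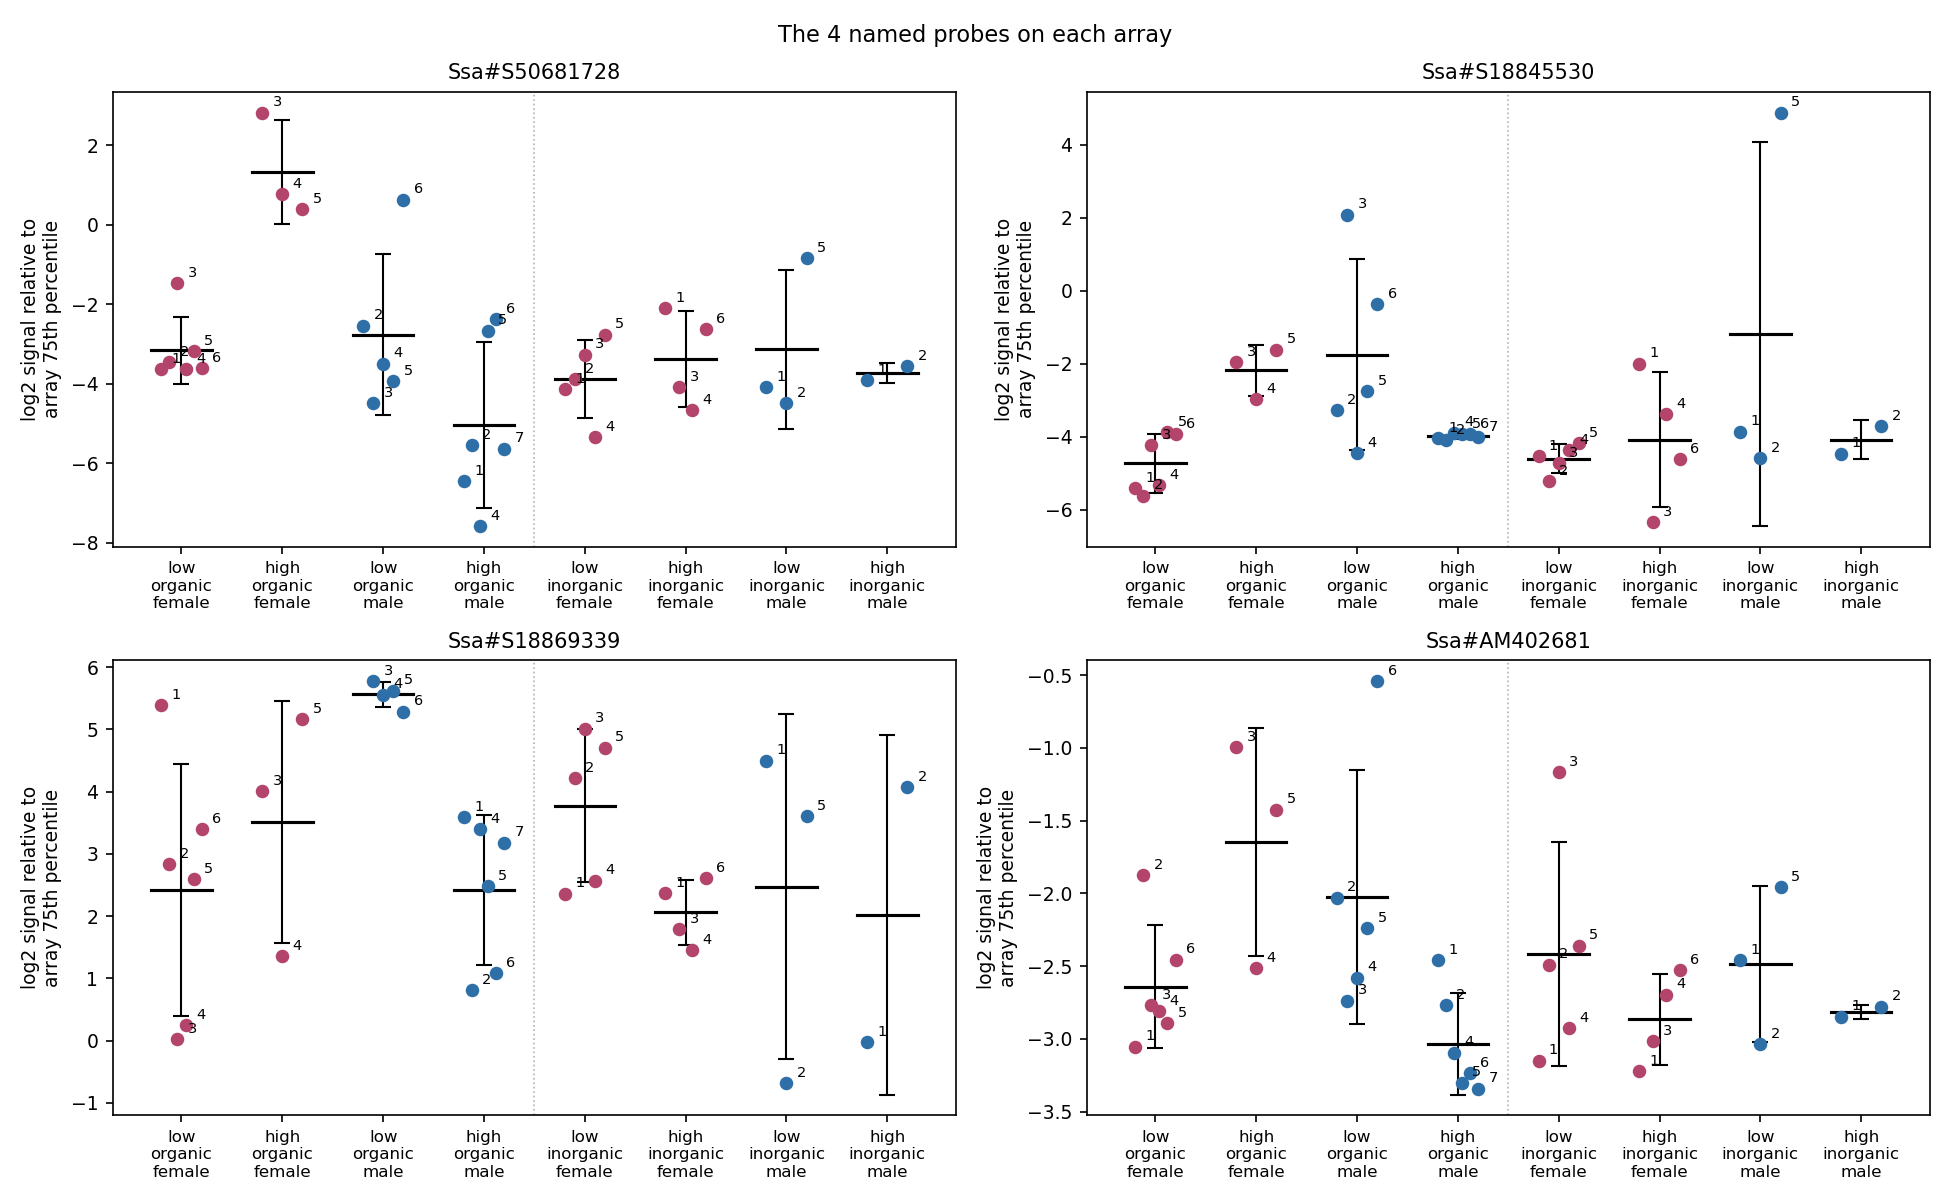
Level of the first, second, brightest (rank 99) and last (rank 150) of the 150 chosen probes on each array (vertical axes, log2 signal over the array's 75th percentile, each panel with its own scale), with points numbered by fish and bars for the group mean and SD. Ssa#S50681728 is high in the 3 high organic females and low organic male 6, Ssa#S18845530 in low inorganic male 5 and low organic male 3, and Ssa#S18869339 in 4 low organic males (5.28 to 5.78), with low organic female 1 (5.39), high organic female 5 (5.16) and low inorganic female 3 (5.01) at similar levels.

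The fish fed inorganic minerals gave a comparison in fish that the ranking had not used. It is not fully independent, since their arrays counted in the filter and shared slides with organic fish. The spread in the tests also included organic fish. In inorganic females the 150 probes had a median response of -0.13, against -0.01 over all 10295 probes, with a range of -3.01 to 1.74. Of the 150, 61 (40.7%) were above 0 and 89 (59.3%) below, against 49.1% and 50.9% of all probes. The DEG criteria of the study, a fold change above 1.75 and p under 0.05, here limma's unadjusted p, were met by 0 probes that rose (2.17% of all probes) and 8 that fell (4.71%). After Benjamini-Hochberg adjustment 0 of the 150 passed in limma, against 3 of all probes (0.0291%), and 10 had an unadjusted p under 0.05 (6.67%), fewer than the 14.3% of all probes. All high females were above all low females in 0 of the 150 (3.13% of all probes) and below them in 2 (1.92%). The rise of the organic females thus had no counterpart here, and the difference between the mineral sources was not tested, since the organic values had chosen the probes. Reading was incomplete in these fish. The share of the 150's spots read well above background was 84% at the high and 86.7% at the low level, against 95.4% and 96.3% for all ranked probes. High female 1 read 80 of the 150 and low female 4 read 103. The 150-probe average was -3.96 to -2.86 in the 4 high females (mean -3.44 ± 0.46, SD) and -3.70 to -2.63 in the 5 low females (-3.23 ± 0.49), and the groups overlapped.

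In inorganic males the 150 probes were lower at the high level by a median of 0.90, a response of -0.90 against -0.02 over all probes. It ran from -4.56 to 2.42, and 145 of the 150 (96.7%) were below 0, where 51.5% of all probes were. The 2 high males averaged -3.53 and -3.44 over the 150 probes and the 3 low males -3.17, -2.79 and -1.70, with no overlap. In single probes both high males were below all 3 low males in 62 of the 150 (41.3%), against 14.5% of all probes, and above all 3 in 1, against 12.3%. The DEG criteria were met by 8 probes that fell (2.22% of all probes) and 0 that rose (1.5%). None passed after adjustment in limma, nor did any of the 10295 probes (0%), and 8 had an unadjusted p under 0.05 (5.33%), close to the 5.47% of all probes. Few single probes thus passed. The 150 probes varied together among the inorganic fish, as described below, so the 145 below 0 are not 145 separate observations.

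The size of the inorganic male response leaned on low inorganic male 5. Without this fish the median was -0.46 and 123 of the 150 were below 0, with no median or share over all probes given beside them. These signs rest on the 2 high males and the 2 other low males, and the probes are not separate observations of them. Both high males were then below both other low males in 67 of the 150 (44.7%), against 22.1% of all probes. Slide 4 was the only slide with inorganic males of both levels, and there the 2 high males were below low male 1 in 110 of the 150 (73.3%), against 40.1% of all probes, with a median difference of -0.59. Probes of the dimmest bin had a median of -0.21 in inorganic males over all 2574 such probes and of -0.92 over the 150's share of them. With the 2 males of the high group, which by the labels are the only ones, a single low-level fish can move any of these values.

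**Figure D4:**
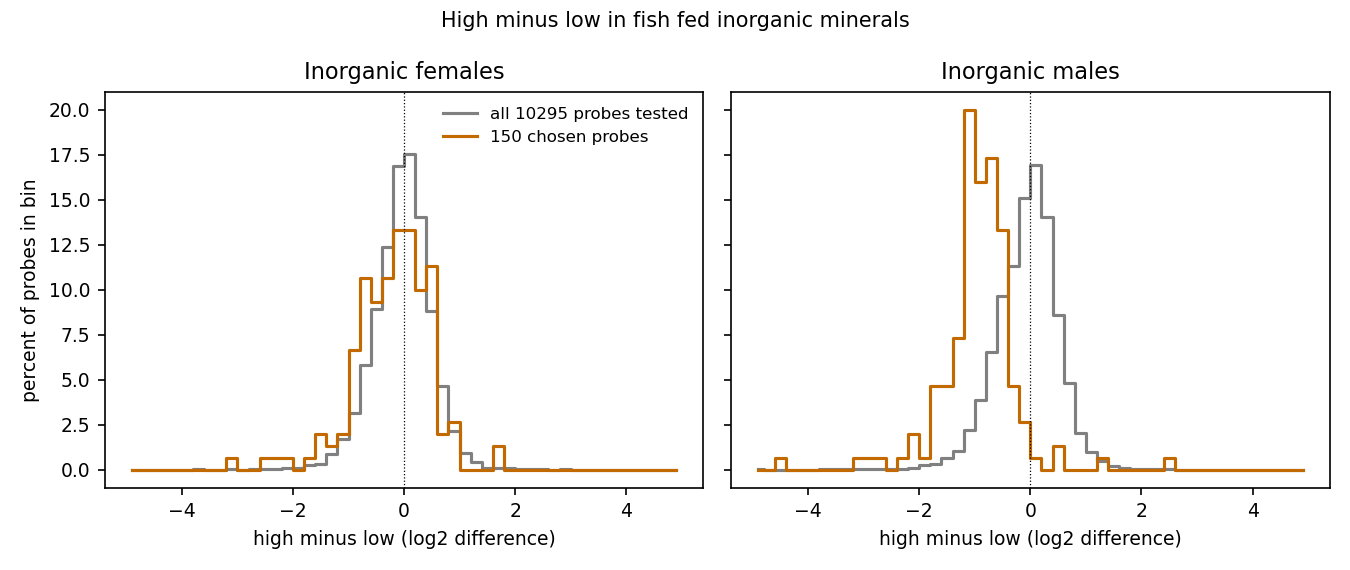
Distribution of the high minus low difference (horizontal axis, log2) in inorganic females and inorganic males for the 150 chosen probes (orange) and all 10295 probes tested (grey), as percent of probes in each bin (vertical axis). In females both curves centre near 0 (medians -0.13 and -0.01), and in males the chosen probes are shifted to lower values (median -0.90 against -0.02).

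The difference between the inorganic responses, females minus males, had a median of 0.81 over the 150 probes against -0.01 over all, and 124 (82.7%) were above 0, where 49.3% of all probes were. The DEG criteria were met by 1 probe with the larger response in females (0.583% of all probes) and 0 with the larger response in males (0.534%). None of the 150 passed after adjustment in limma (0% of all probes), and 1 had an unadjusted p under 0.05 (0.667%, against 1.21% of all probes). Without low inorganic male 5 the median of the difference was 0.27, with no median over all probes given beside it. A response above 0 in inorganic females and below 0 in inorganic males, the signs of the organic fish, was seen in 60 of the 150 (40%), against 18.5% of all probes. A response below 0 in both sexes was more frequent, in 85 of the 150, against 33.0% of all probes. Taken by sex, 96.7% of the 150 were below 0 in males, against 51.5% of all probes. In females 40.7% were above 0, against 49.1%, so the female part of these signs was not in excess. No fish is shared between the 2 mineral sources.

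Over both inorganic levels the 150 probes were higher in males than in females by a median of 0.34, against 0.05 over all probes. Of the 150, 113 (75.3%) were higher in males, where 55.3% of all probes were. In the dimmest bin the median was 0.16 over all probes and 0.37 over the 150's share. The criteria were met by 3 higher in males (1.91% of all probes) and 3 lower (0.204%), 0 passed after adjustment in limma (0% of all probes), and 6 had an unadjusted p under 0.05 (4%, against 7.05% of all probes). The median turned to -0.22 under normexp, with no median over all probes given beside it, so no direction by sex is read in these fish. With the slide as a block the median was -0.34. No slide held inorganic fish of both sexes, so the sexes are linked there only through organic fish, which chose the probes. Nothing is read from that value. Most slides held a single sex, and slide and sex cannot be told apart on them.

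The 150 probes varied together also among the 14 inorganic arrays, which counted in the filter but not in the ranking. The Pearson r of each probe with the mean of the other 149 ran from -0.75 to 0.95 with a median of 0.68, and it was above 0.5 in 107 (71.3%). Of the other 10145 ranked probes 12.9% were above 0.5 with the mean of the 150, with a median of 0.02. These other probes were not matched to the 150 in level, and the 150 were mostly dim, which was not allowed for. These are correlations over 14 arrays that share slides and include low inorganic male 5, and they are given as a description. Grouping the probes by average linkage on their correlation over these 14 arrays, cut at r of 0.5, gave 19 clusters, of which the largest held 81 probes, the next 17, and 7 held a single one. The cut was chosen after the data had been seen.

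The cluster of 81 held most of what the average showed. Its mean in the 3 high organic females was 0.10, -0.72 and -1.43, and low organic male 6 stood at 0.33 and low inorganic male 5 at -1.32, while the other 29 arrays lay between -4.51 and -2.56. Its median rise in organic females was 2.96, above the 2.07 of all 150, and its inorganic medians were -0.03 in females and -1.01 in males. It was dim, with a median level of -3.49. The next highest array was that of low organic male 2, at -2.56.

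The cluster of 17 shared low organic male 6 and high organic female 3 as its highest arrays but not low inorganic male 5. Its mean was -1.39, -1.48 and -1.95 in the 3 low inorganic males, with fish 5 the lowest, and -1.85 and -3.16 in the 2 high ones. In organic males it was -2.36, -1.85, -1.18, -1.14 and -0.18 at the low level and ran from -3.34 to -1.72 at the high level. The median organic male response was -1.23, and -0.90 without low male 6, which was the highest of the low males here too. The median inorganic male response was -0.71, and -0.92 without low male 5. In the cluster of 81 the same omissions left -0.54 of -1.18 in organic and -0.31 of -1.01 in inorganic males. In organic females its mean was -1.59, -1.56 and -1.004 at the high level and ran from -4.62 to -1.47 at the low level, and the inorganic female median was 0.33.

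**Figure D5:**
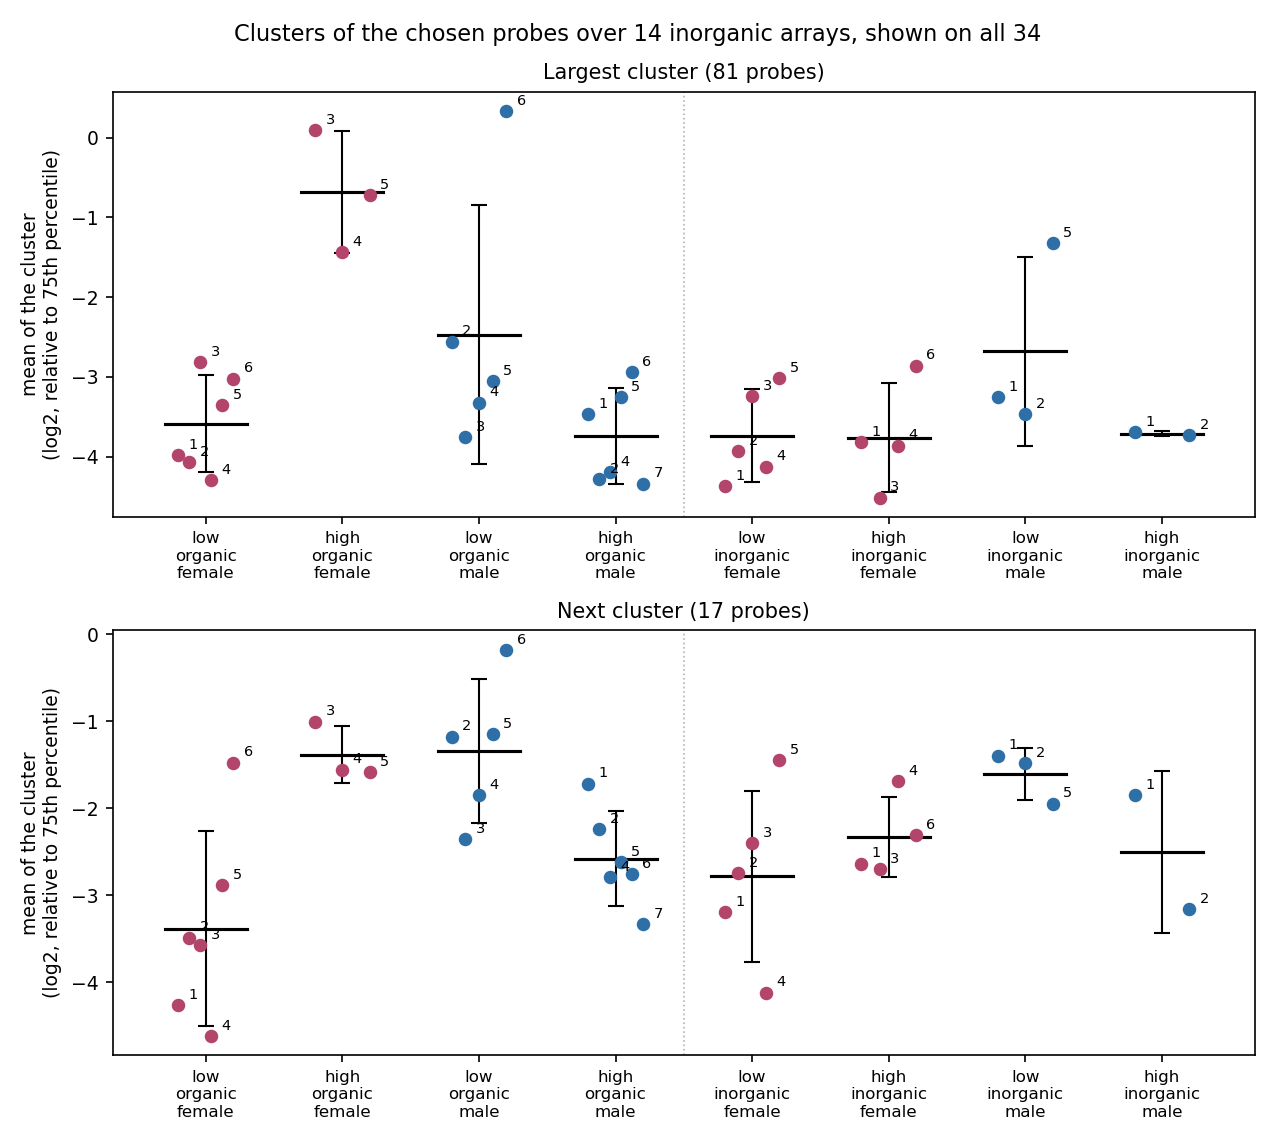
Mean level of the 81 probes of the largest cluster (top) and the 17 of the next (bottom) on each array (vertical axes, log2 signal over the array's 75th percentile), with points numbered by fish and bars for the group mean and SD. The largest cluster is raised in the 3 high organic females, low organic male 6 (0.33) and low inorganic male 5 (-1.32), and in the next cluster low inorganic male 5 (-1.95) is the lowest of the 3 low inorganic males.

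The third cluster, of 10 probes, and the fourth, of 7 with Ssa#S18869339 among them, had medians below 0 in inorganic females as well, of -0.93 and -0.97, beside -0.70 and -0.78 in inorganic males. The cluster of 7 had a median of -1.86 in organic males and 1.16 in organic females. Its group mean of 0.14 in low organic males was the highest of the 8 groups, and -2.30 in high inorganic males the lowest. Both clusters thus had medians below 0 in 3 of the 4 combinations of source and sex, which were given no test of their own. The rule had set the signs in organic fish. The clusters were formed on the inorganic arrays, so a sign shared within a cluster there is partly built in. Nothing is read from these signs.

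Some members had levels that lay far apart between fish of 1 group. The member ranked 61, singled out after its values had been seen as the one with the widest range, ran from -8.50 to 4.63. It was above 0 in 8 arrays, which were low organic males 3, 4, 5 and 6, high organic female 5, low organic female 1, low inorganic female 3 and low inorganic male 5, and below -2 in 22. In organic males the groups were apart but for low male 2 at -6.57, with the other 4 low males between 1.35 and 2.80 and the 6 high males between -5.79 and -3.10. In organic females each group held fish at both ends, with 3.11, -2.90 and -4.54 at the high level and -7.31 to 4.63 at the low level. The member ranked 89 ran from -8.03 to 2.54 with 9 arrays above 0, among them 4 of the 5 low inorganic females.

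By the form of their identifiers the 150 also differed from the other probes. Identifiers that begin with Omy# made up 29 of the 150 (19.3%), against 7.01% of the ranked probes, and those with GRASP 7 (4.67%), against 28.2%. In the dimmest bin alone, GRASP identifiers made up 3.92% of the 150's share and 8.35% of all probes, and Omy# identifiers 21.6% and 11.2%. In the next bin the Omy# shares were 5.41% and 7.58%, so their excess did not hold there. It was seen in the third bin, with 44.4% and 5.40%, and in the brightest, with 50% and 3.85%. These bins held only 9 and 2 of the 150. What these prefixes stand for is not given in the files. On the array surface the 150 fell into the 4 quadrants as 34%, 20%, 25.3% and 20.7%, against 25.3%, 24.5%, 25.5% and 24.7% of the ranked probes.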

How the data were processed

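Midgut RNA from 34 fish was hybridised to one-colour (Cy3) arrays. The authors deposited spot intensities from Feature Extraction 12.0.1.1, not scaled between arrays: the processed signal, which is background-subtracted, the median brightness of spot and background, and the software's flags. The authors also deposited a table of processed intensity values, used as an alternative. Groups came from the sample labels.

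Processed signals were taken to log2 and set against the 75th percentile of their array, without control spots and with 2160 outlier spots missing. Of 14841 probes, the 10295 that 25 or more arrays read well above background were ranked. limma 3.58.1 (R 4.3.3) was fitted to all 8 groups of diet, level and sex together, with no covariates, with Benjamini-Hochberg adjustment over all 10295 probes and tested on simulated data. The contrasts were high minus low in inorganic females and males, their difference, and male minus female. The study's criteria, a fold change above 1.75 and p under 0.05, were applied with limma's unadjusted p.

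The members, contrasts and lists were chosen with earlier results of these data known. Probes were named by rule: the first, second, brightest and last of the ranking. As 0 of 150 identifiers were found among 65341 reference genes, the planned gene lists and cell type markers were not run. No probe sequences were used here. The alternatives were normexp (offset 50, on median brightness), quantile normalization, the authors' values, a 75th percentile over bright probes, filters of 6 and of all 34 arrays, slide, scan day or fish number as a block, inorganic arrays alone, and each array left out. Signal over background and the number of arrays limit the precision.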

Additional observations from a re-analysis of the deposited data

Results flagged for a closer look

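In 25 groups of 4 to 6 arrays, the gap between the most extreme array and its neighbour was set against the range of the group, for the average of the 150 probes and for the 4 named probes. By chance about 1 in 20 groups shows so large a gap, a rate that does not hold for organic groups, since their values chose and ranked the probes. In 2 of the 25, both organic, it did. Groups of fewer than 4 arrays were not screened, the low inorganic males among them. In those males Ssa#S18845530 stood at 4.88 in fish 5, with the next at -3.86. The average of the 150 probes was -0.10 in low organic male 6, where the next of the 5 low organic males stood at -2.41. The level of Ssa#S50681728 was -1.47 in low organic female 3, where the next of the 6 low organic females stood at -3.18.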

How the results depend on the processing

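None of the 150 probes passed limma's adjusted threshold in any of the 4 inorganic comparisons under any alternative run. The inorganic male median stayed below 0 under all of them, between -1.22 and -0.46 with an array left out, and at -0.64 under normexp, -0.69 under quantile normalization and -0.66 by the authors' values. Normexp moved the median of all probes in inorganic males to -0.20 and of the difference between the sexes' responses to 0.21. With an array left out the median of this difference ran from 0.27, without low inorganic male 5, to 1.03.

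In the organic fish the medians of 2.07 in females and -1.20 in males became 0.77 and 0.028 under normexp, and 29 of the 150 were chosen again. With 50 added to the processed signal, an alternative chosen after seeing the data, they were 0.86 and -0.19. By the authors' values 99 were chosen again, with a filter of 6 arrays 19, since dimmer probes then enter the ranking, and with a filter of all 34 arrays the 49 that remained in the table. With an array left out the number ran from 81, without low organic male 6, to 142.

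The counts of members by the criteria were small and moved. In inorganic females the 8 became 3 under normexp, 3 with the all-array filter, 13 with the slide as a block, 14 with the day of scanning as one, and 3 (without high female 3) to 13 (without high female 6) with an array left out, with 4 without low female 2. In inorganic males the 8 became 2 under normexp, 2 under quantile normalization, 3 by the authors' values, 2 with the all-array filter, 3 with the slide as a block and 24 from the inorganic arrays alone. With an array left out they ran from 2 (without low male 5) to 16 (without low male 2), with 4 and 3 without high males 1 and 2. For the difference between the responses the count of 1 became 0 under normexp, 2 by the authors' values, 0 with the all-array filter, 6 from the inorganic arrays alone and 0 to 7 (without low male 1) with an array left out. For males minus females the 6 became 3 under normexp, 0 with the all-array filter, 0 with the slide as a block, 10 from the inorganic arrays alone and 1 (without high male 1) to 13 (without high female 6 or low female 5) with an array left out. The median of males minus females turned to -0.22 under normexp and -0.34 with the slide as a block, where only organic fish link the sexes. The share of all probes called under each alternative is not given here, so none of these counts is read as above or below it. The cause of these moves was not tested.

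The labels give the same fish numbers in several groups. Of 5 same-numbered pairs compared, 1 deviated together with r above 0.1. So few pairs cannot tell whether the fish share more than a number. With the fish number as a replicate block the counts were 14 in inorganic females, 4 in inorganic males, 0 for the difference and 22 for males minus females. The share of all probes under this block is not given either, so these counts are not read against it.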
